A study of Penicillium oxalicum with 18 samples.

Results

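The comparison of Δfbx23 with the wild type (WT) on glucose concerns the transcriptome of Penicillium oxalicum, a filamentous fungus that secretes plant cell wall degrading enzymes. Its members are the genes that averaged 1 FPKM or more (fragments mapped to a gene, scaled by its length and by the depth of the library) over 3 Δfbx23 and 3 WT libraries, which gave 7691 of the 9230 genes in the table. Δfbx23 is the WT with its fbx23 gene replaced by hph, a hygromycin resistance gene, and the WT is strain 114-2. Both were precultured for 24 h at 30 °C with 2% glucose and then moved to fresh liquid medium with 2% glucose, for 18 h by the sample labels and 24 h by the study's methods. The series holds 18 libraries, 3 each of Δfbx23, Refbx23 and the WT on glucose and on cellulose. The cellulose medium held no glucose but, by the labels, 1% bran and 1% microcrystalline cellulose, while the study's methods give 2% cellulose. Refbx23 is Δfbx23 with fbx23 put back together with the ptrA marker, and its values on glucose are given beside the others without a test. The resistance marker was carried by Δfbx23 and not by the WT. The sources used here do not state how many independent transformants were examined, and the labels do not say that replicates came from separate cultures, so that p-values measure only the spread between these libraries.

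F-box proteins are the substrate-recognising subunits of SCF complexes, ubiquitin ligases built on Skp1, a cullin and a RING protein, which mark chosen proteins for breakdown by the proteasome. Filamentous fungi keep many genes for secondary metabolites, such as pigments, alkaloids and toxins, side by side in clusters around a backbone gene that encodes a polyketide synthase (PKS), a nonribosomal peptide synthetase (NRPS) or a prenyltransferase (DMAT). On glucose, P. oxalicum represses most of its cellulase genes. Ace1 is a zinc finger transcription factor that represses such genes on cellulose, and the study proposes that it activates the pigment gene abrB on glucose.

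The 6 libraries were close in their FPKM totals, which are already scaled by depth. The sums ranged from 900261 to 954142, and between 8385 and 8505 genes were above 0. A relative depth estimated from the steps between low values ranged from 0.986 to 1.01. It used only values close to the lowest of each gene, so it could not show a large difference in depth. The number of reads is unknown. Across genes, the Pearson correlation of log2(FPKM + 1) was 0.973 to 0.990 between Δfbx23 libraries, 0.951 to 0.990 between WT libraries and 0.864 to 0.924 between libraries of different strains. Genes are not independent replicates, and these values describe the libraries only. Within the WT, replicate 3 was the library furthest from the other 2.

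On glucose, 905 of the 7691 genes (11.8%) were changed in Δfbx23, that is, they moved by 2-fold or more and had an adjusted p (limma, Benjamini-Hochberg) below 0.05. Of these, 367 genes (4.77%) were higher and 538 genes (7.0%) were lower. The falls were larger than the rises. Lower genes had a median log2 fold change of -1.89 and higher ones a median of 1.52, and 130 genes were lower by at least 8-fold against 30 that were higher by at least 8-fold. Over all genes tested the median was -0.07. With median-ratio scaling of the libraries that median was -0.01, and 406 genes were higher and 503 lower, so the excess of lower genes was smaller. Fold changes are on the log2(FPKM + 1) scale, which understates the change of low genes, and a value after ± or SE is its standard error.

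Many of the lower genes were nearly silent without fbx23. Their mean in Δfbx23 was under 1 FPKM for 138 of the 538, and 10 were listed at 0 in all 3 Δfbx23 libraries. The higher genes included 35 with a mean under 1 FPKM in the WT, of which 7 were listed at 0 in all 3 WT libraries. The filter was on the mean over both strains, so genes under 1 FPKM in 1 strain could enter only through the other. Of the 538 lower genes, 398 averaged at least 10 FPKM in the WT, and the others were below that level there. Highly transcribed genes stood on both sides, with 109 higher genes that averaged at least 100 FPKM in Δfbx23 and 88 lower genes that averaged at least 100 FPKM in the WT. The lower genes together made up 1.04% to 1.35% of the FPKM sum in Δfbx23 and 4.76% to 6.10% in the WT. The higher genes made up 9.65% to 10.3% in Δfbx23 and 2.63% to 2.97% in the WT. These genes were chosen by the contrast itself, so the shares describe its size.

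All 905 changed genes had 3 Δfbx23 values on one side of the 3 WT values, as had 3523 of the genes tested (45.8%). The libraries did not differ equally: Δfbx23 replicate 2 was the Δfbx23 library nearest to the WT for 509 of the changed genes, and WT replicate 3 was the WT library nearest to Δfbx23 for 405. Without these 2 libraries 1150 genes were changed, 470 higher and 680 lower, and 835 of the 905 were among them in the same direction. Leaving out the libraries nearest to the other strain on these genes widens the contrast by construction. The higher count and the kept calls are therefore no independent support.

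**Figure D1:**
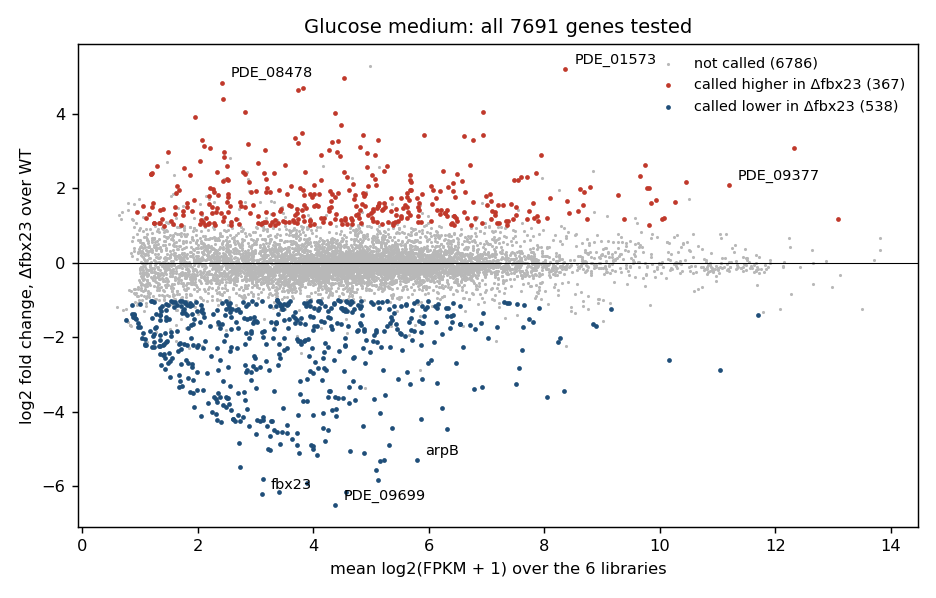
Log2 fold change (Δfbx23 over WT, vertical axis) against the mean log2(FPKM + 1) over the 6 glucose libraries (horizontal axis), 1 point per gene for 7691 genes. The 367 genes changed upwards (red) reach 5.20, the 538 genes changed downwards (blue) reach -6.49, and the other genes (grey) lie mostly near 0.

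The deleted gene was examined first. The fbx23 gene (PDE_08467), which encodes the F-box protein, was listed at 0 in all 3 Δfbx23 libraries and at 76.9, 73.0 and 70.1 FPKM in the WT libraries (limma adjusted p = 2.90e-06). In Refbx23 it was at 65.8, 64.4 and 74.9 FPKM. Its values went with the labels in all 9 glucose libraries.

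None of the partners of Fbx23 in the SCF complex passed both thresholds. The gene skp1 (PDE_02249), for the adaptor that binds F-box proteins, was at 139.3, 135.8 and 146.3 FPKM in Δfbx23 and 160.1, 145.7 and 144.01 FPKM in the WT, with a log2 fold change of -0.09 ± 0.09. The cullin gene cul1 (PDE_00128) was at 42.5, 50.5 and 47.4 FPKM in Δfbx23 and 65.2, 63.1 and 55.4 FPKM in the WT (log2 fold change -0.38 ± 0.11, limma adjusted p = 0.0453), a change under 2-fold. For rbx1 (PDE_02289), the RING subunit gene, the value was also -0.38 ± 0.13 (limma adjusted p = 0.0777). The regulator gene ace1 (PDE_01988) was at 84.9, 92.5 and 93.8 FPKM in Δfbx23 and 169.7, 146.4 and 94.5 FPKM in the WT, where replicate 3 lay close to Δfbx23. Its log2 fold change was -0.55 ± 0.22 (limma adjusted p = 0.111). With libraries left out it ranged from -0.81 to -0.38, always under 2-fold, with limma adjusted p from 0.00365 to 0.277. The gene mub1 (PDE_05666) was under the filter, with at most 0.09 FPKM.

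Of the 8 tested neighbours within 5 locus numbers of fbx23, only PDE_08468, the next locus, was changed. It was at 16.7, 22.5 and 21.5 FPKM in Δfbx23 and 4.66, 5.95 and 3.02 FPKM in the WT, with a log2 fold change of 1.96 ± 0.23 (limma adjusted p = 0.00226). In Refbx23 it was at 5.68, 6.32 and 7.52 FPKM. PDE_08466, the neighbour on the other side, was at 75.8, 84.5 and 83.0 FPKM in Δfbx23 and 76.6, 78.9 and 76.3 FPKM in the WT. Without WT replicate 3, PDE_08471 was also changed, with a log2 fold change of 1.31 (limma adjusted p = 0.00595).

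The genes for DHN-melanin, the dark polyketide pigment of conidia, were among the genes with the largest falls: 5 of 6 were lower and 0 were higher, against 7.0% and 4.77% of all genes tested, and their median was -4.73 on the log2 scale. The study picked this list from these libraries, so the count is not independent evidence of its direction. In Aspergillus fumigatus, the polyketide synthase AlbA and the hydrolase AygA make the naphthalene precursor, reduction and dehydration steps follow, and the oxidases AbrA and AbrB polymerise it.

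The first gene of the route, albA (PDE_09491), was at 1.02, 1.02 and 0.82 FPKM in Δfbx23 and 13.1, 18.6 and 36.9 FPKM in the WT (log2 fold change -3.49 ± 0.35, limma adjusted p = 0.00143). For aygA (PDE_09452) the values were 0, 7.33 and 1.62 FPKM in Δfbx23 and 65.1, 102.7 and 146.6 FPKM in the WT (log2 fold change -5.17 ± 0.76, limma adjusted p = 0.00502). The gene arpA (PDE_04496), which the study lists as a tetrahydroxynaphthalene reductase gene, was at 1.14, 1.61 and 1.13 FPKM in Δfbx23 and 33.9, 46.1 and 88.6 FPKM in the WT (log2 fold change -4.53 ± 0.34, limma adjusted p = 0.000554). For these genes even the highest Δfbx23 library was far below the lowest WT library.

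The gene arpB (PDE_04495), listed as a reductase gene as well, was the most abundant of the pathway in the WT. It was at 4.06, 21.3 and 5.06 FPKM in Δfbx23 and 251.2, 328.0 and 505.5 FPKM in the WT (log2 fold change -5.30 ± 0.59, limma adjusted p = 0.00196). The laccase gene abrB (PDE_09492) was at 1.45, 2.96 and 1.52 FPKM in Δfbx23 and 54.1, 73.8 and 165.8 FPKM in the WT (log2 fold change -4.93 ± 0.43, limma adjusted p = 0.000858). The other oxidase gene, abrA (PDE_09453), had a smaller fold change than the other 5, with 56.3, 31.8 and 34.6 FPKM in Δfbx23 and 60.1, 74.6 and 130.3 FPKM in the WT. Its groups did not overlap, but its log2 fold change of -1.06 (SE 0.34) missed the threshold (limma adjusted p = 0.0652). In the fit of all 18 libraries it was the same size and passed (limma adjusted p = 0.00311), so that all 6 genes were then lower.

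Summed over the 6 genes, the transcript level was 63.9, 66.0 and 44.7 FPKM in Δfbx23 and 477.4, 643.8 and 1073.6 FPKM in the WT. WT replicate 3 was the highest WT library for all 5 lower genes, and Δfbx23 replicate 2 was the highest Δfbx23 library for 4 of them. The same 5-gene count was obtained without either library and without both. In Refbx23, albA was at 148.3, 218.7 and 225.5 FPKM and arpB at 1676.8, 1784.7 and 1953.6 FPKM, above all WT libraries. In these mycelia, fewer cells that make pigment and less RNA per cell cannot be told apart.

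**Figure D2:**
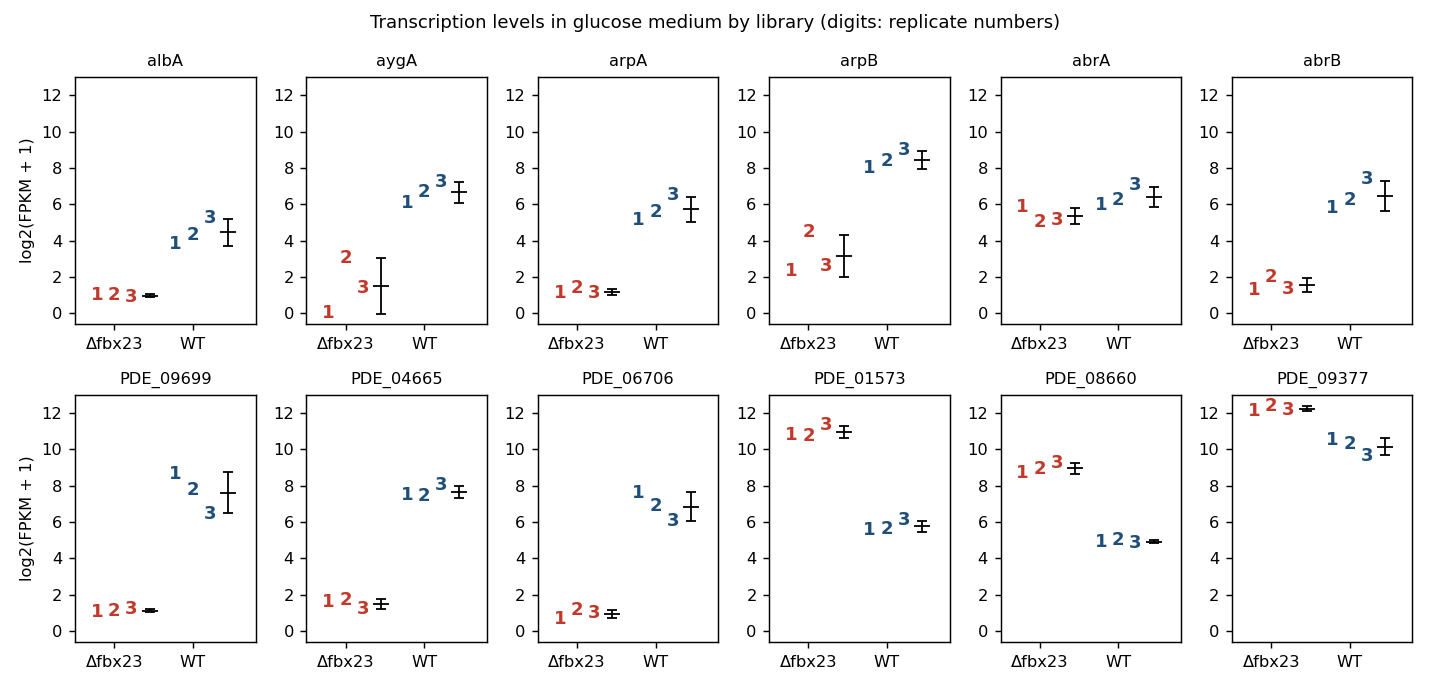
Transcript levels as log2(FPKM + 1) in each glucose library, with the digits giving the replicate number, Δfbx23 in red on the left and WT in blue on the right, and the bars beside them the mean ± SD of the log2 values (n = 3). The upper panels show the 6 DHN-melanin genes, of which abrA keeps 31.8 to 56.3 FPKM in Δfbx23; the lower panels show 3 of the largest falls and, at the right, PDE_01573, PDE_08660 and PDE_09377, which were higher in Δfbx23.

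Many members of the secondary metabolism clusters fell. Of 297 loci in 28 clusters listed by the study, 284 were in the table and 223 were tested, and of these 85 (38.1%) were lower and 16 (7.17%) were higher. Over the tested cluster genes the median was -0.29 on the log2 scale, since 122 of them were not changed. Cluster genes made up 2.90% of the genes tested, 15.8% of the lower genes and 4.36% of the higher genes. By cluster, 11 had lower and no higher members, 4 had higher and no lower members, and 3 had both. At least 50% of the tested members were lower in clusters 1, 2, 7, 12, 26, 27 and 28. Among the 22 tested backbone genes 12 were lower and 0 were higher, against 7.0% and 4.77% of all genes tested, with a median of -1.71. Most of the 12 lie in clusters that the study singled out from these libraries, and albA is in the melanin list. The count is therefore not independent evidence. With a minimum mean of 5 FPKM, 6 backbone genes were lower, since the others were under that filter. Without WT replicate 2, the number of higher cluster genes was 9, and without Δfbx23 replicate 1 a single backbone gene was higher.

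Clusters 1, 2, 26 and 28 held 58 of these lower genes, and since the study singled them out from these libraries, their counts are not independent evidence. In cluster 1, which has NRPS and prenyltransferase backbones, 23 of 27 tested members were lower. The summed level of its genes was 61.7, 133.8 and 65.3 FPKM in Δfbx23 and 1093.2, 1378.0 and 2247.3 FPKM in the WT. Its largest fall was that of PDE_00806, at 3.61, 9.62 and 2.77 FPKM in Δfbx23 and 155.4, 195.5 and 371.2 FPKM in the WT (log2 fold change -5.31 ± 0.48, limma adjusted p = 0.000962). The members PDE_00794 and PDE_00796 followed with -5.10 and -5.01. All 23 were highest in the WT in replicate 3, and 22 were highest in Δfbx23 in replicate 2.

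Cluster 2, tied by the study to roquefortine C and meleagrin, which are indole alkaloids, had 10 of 11 tested members lower. Its summed level was 24.8, 106.7 and 51.3 FPKM in Δfbx23 and 302.1, 407.5 and 781.4 FPKM in the WT. PDE_01069 fell most, with 0.78, 4.44 and 1.42 FPKM in Δfbx23 and 54.4, 74.9 and 145.8 FPKM in the WT (log2 fold change -4.90 ± 0.51, limma adjusted p = 0.00157). Cluster 28, with a PKS backbone, was lower in all 11 members, and its summed level was 13.5, 34.6 and 17.2 FPKM in Δfbx23 and 265.5, 338.2 and 607.7 FPKM in the WT. WT replicate 3 was again the highest WT library, for 10 of the 10 lower genes in cluster 2 and for 10 of the 11 in cluster 28.

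Cluster 26, also with a PKS backbone, was lower in 14 of 16 tested members but had another order of the WT libraries. Its summed level was 40.5, 27.8 and 27.2 FPKM in Δfbx23 and 898.5, 348.5 and 258.6 FPKM in the WT, and WT replicate 1 was the highest for all 14 lower members. The largest fall was that of PDE_09236, annotated with secondary metabolism, at 0, 0.19 and 0.38 FPKM in Δfbx23 and 164.1, 51.1 and 32.3 FPKM in the WT (log2 fold change -5.80 ± 0.57, limma adjusted p = 0.00128). The monooxygenase gene PDE_09241 was at 0.74, 1.24 and 0.99 FPKM in Δfbx23 and 132.4, 49.0 and 27.9 FPKM in the WT (log2 fold change -4.87 ± 0.53, limma adjusted p = 0.00179). The count was 9 without Δfbx23 replicate 3, where its PKS gene PDE_09237 lost its call (log2 fold change -2.63, limma adjusted p = 0.0582).

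Other clusters were also lower in part. In cluster 7 the NRPS gene PDE_01432 was at 0.15, 0.36 and 0.18 FPKM in Δfbx23 and 4.42, 5.51 and 6.97 FPKM in the WT (log2 fold change -2.42 ± 0.19, limma adjusted p = 0.000646). Beside it, PDE_01430 was at 0.08, 0.53 and 0.15 FPKM in Δfbx23 and 28.1, 34.8 and 40.3 FPKM in the WT (log2 fold change -4.82 ± 0.20, limma adjusted p = 0.000137). In all, 7 of the 13 tested members of cluster 7 were lower and 1 was higher. The higher member lost its call without any of 5 libraries, the exception being WT replicate 1.

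Cluster 16 had 3 of 9 tested members lower. Among them the flavin monooxygenase gene PDE_04264 was at 6.59, 5.83 and 5.15 FPKM in Δfbx23 and 51.7, 48.4 and 42.0 FPKM in the WT (log2 fold change -2.82 ± 0.13, limma adjusted p = 0.000177). This gene varied little between the replicates of either strain. In cluster 4, 5 of 11 tested members were lower and 1 was higher. Its PDE_01194, the most abundant of the 3 largest falls, was at 101.0, 64.7 and 141.7 FPKM in Δfbx23 and 679.1, 1165.9 and 1557.9 FPKM in the WT (log2 fold change -3.45 ± 0.39, limma adjusted p = 0.00209). Cluster 27 had 3 lower members, albA and abrB described above and PDE_09496, at 71.5, 83.9 and 81.1 FPKM in Δfbx23 and 268.3, 269.4 and 246.9 FPKM in the WT (log2 fold change -1.72 ± 0.10, limma adjusted p = 0.000344).

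The calls in cluster 12, with 2 members, depended on single libraries. Its NRPS gene PDE_03416 was at 1.71, 13.5 and 4.46 FPKM in Δfbx23 and 88.9, 81.6 and 18.6 FPKM in the WT (log2 fold change -3.14 ± 0.80, limma adjusted p = 0.0336). Neither member was called without WT replicate 1, WT replicate 2, Δfbx23 replicate 1 or Δfbx23 replicate 3, where the adjusted p of PDE_03416 ranged from 0.0863 to 0.112. In Refbx23, PDE_03416 was at 1.98, 3.06 and 4.08 FPKM, below the WT range. Single members were lower in cluster 13 (PDE_03454, a transporter gene, -2.34), cluster 15 (PDE_04022, -1.10), cluster 20 (PDE_06625, -2.81) and cluster 25 (PDE_09197, -1.90). Of these, PDE_04022 was under 2-fold without WT replicate 1 (-0.99) or Δfbx23 replicate 2, and PDE_09197 lost its call without WT replicate 1 (adjusted p = 0.0548), WT replicate 2 (0.0923), Δfbx23 replicate 1 (0.0803), Δfbx23 replicate 2 (0.054) or Δfbx23 replicate 3 (0.0953).

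A few clusters moved the other way. In cluster 6, 6 of 8 tested members were higher and 0 were lower, with a median of 1.71, although its PKS gene PDE_01235 stayed under the filter with at most 0.14 FPKM. The summed level was 533.5, 434.7 and 473.9 FPKM in Δfbx23 and 217.6, 165.6 and 91.4 FPKM in the WT. Its PDE_01232 was at 222.8, 143.5 and 174.8 FPKM in Δfbx23 and 57.2, 34.4 and 15.4 FPKM in the WT (log2 fold change 2.47 ± 0.45, limma adjusted p = 0.0115). The next members, PDE_01233, a monooxygenase gene, and PDE_01234 rose by 2.42 and 1.96 and lost their calls without WT replicate 2 or any 1 of the Δfbx23 libraries, with adjusted p up to 0.0896 and 0.0835.

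Cluster 8 was mixed, with 5 members higher and 3 lower of 12 tested. PDE_02136 was at 79.3, 35.5 and 36.9 FPKM in Δfbx23 and 5.13, 5.52 and 5.69 FPKM in the WT (log2 fold change 2.90 ± 0.31, limma adjusted p = 0.00163). Its PKS gene PDE_02141 was at 0.30, 0.89 and 0.28 FPKM in Δfbx23 and 5.41, 7.72 and 15.1 FPKM in the WT (log2 fold change -2.72 ± 0.36, limma adjusted p = 0.00365). The higher count was 3 without WT replicate 1 and 2 without WT replicate 2. Cluster 5 had 0 changed members in limma and 2 with an unadjusted p under 0.05, with a median log2 fold change of 1.54, and its summed level varied widely within the WT, at 2084.5, 1603.4 and 1519.1 FPKM in Δfbx23 and 1553.9, 681.3 and 154.6 FPKM in the WT. Without WT replicate 1, 2 of its members were higher.

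A single member was higher in 3 further clusters. In cluster 22, PDE_07162 was at 14.8, 7.59 and 15.9 FPKM in Δfbx23 and 0, 0 and 1.44 FPKM in the WT (log2 fold change 3.29 ± 0.44, limma adjusted p = 0.00354). PDE_03300 in cluster 11 had 1.3 and PDE_05561 in cluster 18 had 1.02 on the log2 scale. The call in cluster 18 was lost without WT replicate 1, WT replicate 2 or Δfbx23 replicate 3, and without Δfbx23 replicate 1 there were 2 higher members in cluster 11.

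**Figure D3:**
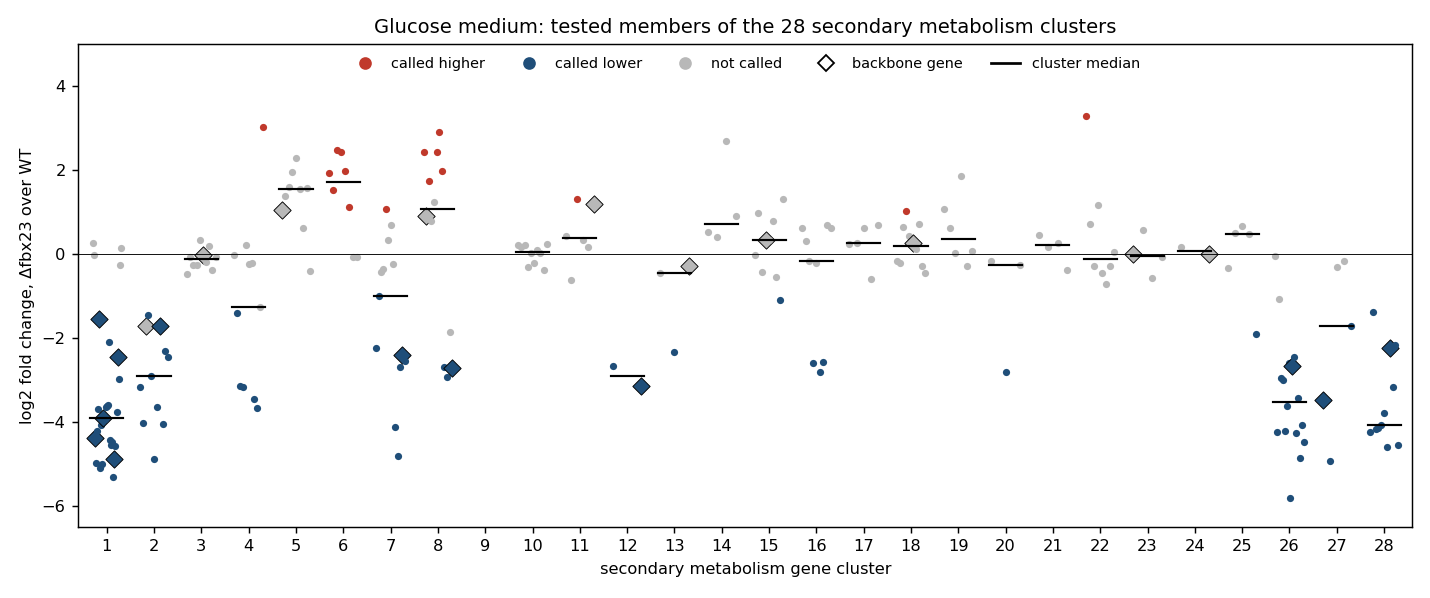
Log2 fold change on glucose (Δfbx23 over WT, vertical axis) of the tested members of 28 secondary metabolism clusters (horizontal axis), with backbone genes as diamonds, changed genes in red (higher) or blue (lower), other genes in grey and black bars for cluster medians. Clusters 1, 2, 26 and 28 lie well below 0, cluster 6 lies above it with a median of 1.71, cluster 8 holds both directions, and cluster 9 has no tested member.

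The largest falls lay mostly outside these clusters, and most of these genes have no description in the sources used here. PDE_09699 fell most, with 1.1, 1.16 and 1.3 FPKM in Δfbx23 and 400.5, 218.1 and 85.5 FPKM in the WT (log2 fold change -6.49 ± 0.52, limma adjusted p = 0.000646). PDE_04665 was at 2.01, 2.23 and 1.29 FPKM in Δfbx23 and 176.1, 172.9 and 257.8 FPKM in the WT (log2 fold change -6.15 ± 0.21, limma adjusted p = 6.05e-05). In Refbx23, PDE_04665 was at 3364.7, 6689.8 and 4332.6 FPKM, outside the range of both strains. PDE_04225 was at 0.10, 0.57 and 0.15 FPKM in Δfbx23 and 143.2, 99.2 and 47.4 FPKM in the WT (log2 fold change -6.14 ± 0.40, limma adjusted p = 0.000396).

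PDE_06706, a dioxygenase gene annotated with mycotoxin biosynthesis, was at 0.60, 1.21 and 0.97 FPKM in Δfbx23 and 195.1, 119.1 and 64.5 FPKM in the WT (log2 fold change -5.92 ± 0.39, limma adjusted p = 0.000396). PDE_06034 varied most within the WT, with 4.45, 4.33 and 2.49 FPKM in Δfbx23 and 852.0, 356.2 and 58.5 FPKM in the WT (log2 fold change -5.82 ± 0.92, limma adjusted p = 0.00657). PDE_00144 was listed at 0 in all 3 Δfbx23 libraries and at 101.7, 45.7 and 17.4 FPKM in the WT (limma adjusted p = 0.00163). Except for PDE_04665, these falls were largest against WT replicate 1. Over the 538 lower genes, WT replicate 1 was the highest WT library for 265, replicate 2 for 60 and replicate 3 for 213.

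PDE_03414 was at 0.64, 19.3 and 2.72 FPKM in Δfbx23 and 455.9, 370.6 and 73.8 FPKM in the WT (log2 fold change -5.55 ± 1.08, limma adjusted p = 0.0137). Its call was lost without WT replicate 2 (adjusted p = 0.0562) or Δfbx23 replicate 3 (0.0589). The oxidoreductase gene PDE_02126 was steadier, at 1.33, 7.43 and 3.06 FPKM in Δfbx23 and 140.01, 130.89 and 157.37 FPKM in the WT (log2 fold change -5.06 ± 0.44, limma adjusted p = 0.000858).

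Among the rises, PDE_01573, annotated as a hydrolase of glycosyl bonds in polysaccharide breakdown, was the largest. It was at 1803.4, 1709.4 and 2605.4 FPKM in Δfbx23 and 47.0, 48.0 and 68.0 FPKM in the WT (log2 fold change 5.20 ± 0.22, limma adjusted p = 0.000149). In Refbx23 it was at 29.7, 28.4 and 42.8 FPKM. PDE_03296, annotated with breakdown of cell wall macromolecules, was at 118.1, 137.3 and 127.3 FPKM in Δfbx23 and 0, 9.01 and 6.22 FPKM in the WT (log2 fold change 4.95 ± 0.83, limma adjusted p = 0.00842).

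PDE_08660, a heme monooxygenase gene annotated with mycotoxin biosynthesis, was at 414.6, 482.3 and 614.7 FPKM in Δfbx23 and 28.7, 31.3 and 28.2 FPKM in the WT (log2 fold change 4.03 ± 0.15, limma adjusted p = 0.000119). The mycotoxin term therefore held genes in both directions, as PDE_06706 shows. In Refbx23, PDE_08660 was at 77.5, 85.5 and 80.1 FPKM. Another rise, PDE_00961, was at 124.6, 46.3 and 61.1 FPKM in Δfbx23 and 1.28, 1.71 and 2.45 FPKM in the WT (log2 fold change 4.69 ± 0.37, limma adjusted p = 0.000643).

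Some of the rising genes were silent in the WT. PDE_08478 was at 25.2, 26.8 and 30.7 FPKM in Δfbx23 and was listed at 0 in all 3 WT libraries (limma adjusted p = 3.40e-05) and in all 3 Refbx23 libraries. PDE_05111 was at 11.8, 19.8 and 11.9 FPKM in Δfbx23 and likewise listed at 0 in the WT (limma adjusted p = 0.000339). PDE_06609 was at 50.1, 16.3 and 16.9 FPKM in Δfbx23 and 0.15, 0.44 and 0 FPKM in the WT (log2 fold change 4.41 ± 0.44, limma adjusted p = 0.00137). None of these 3 genes has a description in the sources used here.

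Of the remaining largest rises, PDE_00167 and PDE_06096 changed by 4.64 (SE 0.55) and 4.02 (SE 0.48). PDE_06813 had a wide spread, at 146.2, 7.34 and 18.6 FPKM in Δfbx23 and 0.69, 0.59 and 0.96 FPKM in the WT (log2 fold change 4.05 ± 0.98, limma adjusted p = 0.0287). Its call was lost without WT replicate 1 (adjusted p = 0.0769), WT replicate 2 (0.091) or Δfbx23 replicate 3 (0.074). PDE_03490, whose best Swiss-Prot match is a biotin synthase of Saccharomyces, rose by 3.43 (SE 0.70, limma adjusted p = 0.0165) and lost its call without WT replicate 2 (0.0645), Δfbx23 replicate 1 (0.0505) or Δfbx23 replicate 3 (0.0607).

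Some of the changed genes lay side by side. Read in order of locus number, 12 stretches of at least 5 successive tested loci, at most 3 numbers apart, were all changed in 1 direction. They held 97 loci, 82 of them in 9 lower stretches (15.2% of all lower genes) and 15 in 3 higher ones. The longest ran over 23 loci, PDE_00789 to PDE_00811, within cluster 1. Of the 12 stretches, 7 touched a listed cluster. Locus numbers stand in for position here, and distances on the chromosome were not analysed. Without Δfbx23 replicate 3 there were 8 such stretches, and with a minimum mean of 5 FPKM also 8.

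Outside the listed clusters, the stretch with the highest WT level among the lower ones ran from PDE_02118 to PDE_02126 with 6 loci. Its summed level was 72.0, 161.5 and 123.3 FPKM in Δfbx23 and 840.8, 789.8 and 958.7 FPKM in the WT. Its members were a flavin-binding protein gene (PDE_02118, -2.67), genes annotated with secondary metabolite biosynthesis (PDE_02121, -2.27, and PDE_02123, -1.91), PDE_02126 and 2 others. PDE_02125, without a description, was at 0.96, 12.6 and 7.27 FPKM in Δfbx23 and 232.6, 205.4 and 267.7 FPKM in the WT (log2 fold change -5.28, limma adjusted p = 0.00313), and it was chosen after its values were seen. In Refbx23 the stretch summed to 3604.8, 2170.7 and 2558.7 FPKM, above the WT range.

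The stretch from PDE_03620 to PDE_03624, also outside the clusters, was a faint one, at 26.6, 41.4 and 35.9 FPKM in Δfbx23 and 116.5, 100.6 and 90.5 FPKM in the WT. Its PDE_03620 and PDE_03623 are annotated with secondary metabolite biosynthesis as well. The stretch from PDE_00484 to PDE_00488, whose genes have no description, was at 36.6, 49.0 and 51.6 FPKM in Δfbx23 and 328.5, 240.2 and 152.4 FPKM in the WT. The stretch from PDE_03413 to PDE_03417, which holds the 2 genes of cluster 12, was at 86.7, 269.1 and 147.4 FPKM in Δfbx23 and 1224.9, 1088.3 and 377.0 FPKM in the WT. In Refbx23 it summed to 35.3, 36.6 and 53.1 FPKM, below both strains, so that Refbx23 lay above the WT in some stretches and below it in others.

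Among the higher stretches, PDE_05947 to PDE_05952 was dominated by PDE_05949, at 2184.5, 1745.7 and 2473.1 FPKM in Δfbx23 and 259.7, 325.0 and 485.2 FPKM in the WT (log2 fold change 2.61, limma adjusted p = 0.0013), another gene chosen after its values were seen. The stretch from PDE_05450 to PDE_05455 summed to 829.6, 725.5 and 721.6 FPKM in Δfbx23 and 326.2, 331.3 and 226.7 FPKM in the WT. It holds PDE_05451, whose best Swiss-Prot match is Pob1, a protein of polarised growth in fission yeast, with a log2 fold change of 1.87 ± 0.12 (limma adjusted p = 0.000363). The third, PDE_01230 to PDE_01234, is the higher part of cluster 6.

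**Figure D4:**
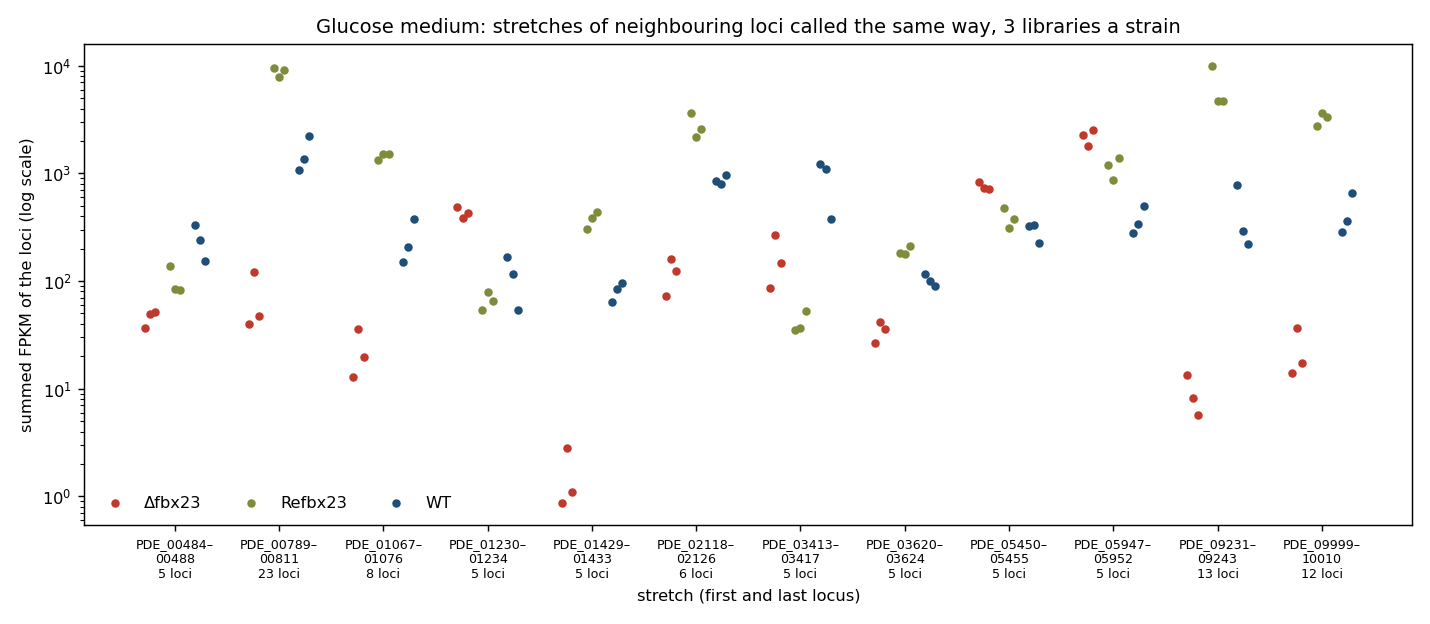
Summed FPKM (vertical axis, log scale) of each of 12 stretches of neighbouring loci changed the same way on glucose, named by first and last locus (horizontal axis), 1 point per library in the order Δfbx23 (red), Refbx23 (green) and WT (blue). In each stretch the 3 Δfbx23 points lie on one side of the 3 WT points, which follows from how the loci were chosen. In PDE_00789 to PDE_00811 Δfbx23 reached 39.9 to 122.0 FPKM against 1077.5 to 2231.8 FPKM in the WT.

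The genes of cellulose breakdown, which this species uses most on plant material, were examined next. Of 11 tested cellulase genes 2 were higher and 0 were lower, against 4.77% and 7.0% of all genes tested, and 6 had an unadjusted p under 0.05, with a median log2 fold change of -0.38. The endoglucanase gene cel12B (PDE_02886) was at 185.6, 223.9 and 259.1 FPKM in Δfbx23 and 122.3, 99.4 and 48.6 FPKM in the WT (log2 fold change 1.38 ± 0.34, limma adjusted p = 0.0307). It was called in the full set and without WT replicate 1. Without WT replicate 3 it was at 1.00 (adjusted p = 0.0099), just under 2-fold, and without WT replicate 2 or Δfbx23 replicate 1, 2 or 3 its adjusted p was 0.0702, 0.0577, 0.0866 and 0.106. In Refbx23 it was at 17.1, 11.4 and 19.5 FPKM, below both strains. The endoglucanase gene eg5/cel45A (PDE_07928) was low, with 3.07, 3.07 and 3.82 FPKM in Δfbx23 and 1.2, 1.08 and 0.65 FPKM in the WT (log2 fold change 1.13 ± 0.18, limma adjusted p = 0.00637).

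The cellobiohydrolase genes, which encode the main secreted cellulases, were near the floor in both strains. The gene cbh1/cel7A (PDE_07945) was at 0.19, 0.60 and 0.18 FPKM in Δfbx23 and 1.43, 3.79 and 1.00 FPKM in the WT (log2 fold change -1.12 ± 0.36, limma adjusted p = 0.0662). For cbh2/cel6A (PDE_07124) the values were 1.28, 1.05 and 0.72 FPKM in Δfbx23 and 0.97, 4.75 and 0.67 FPKM in the WT, so the groups overlapped. The most abundant cellulase gene on glucose was cel5E (PDE_03711), at 281.2, 142.1 and 148.8 FPKM in Δfbx23 and 587.5, 527.0 and 197.5 FPKM in the WT (log2 fold change -1.12 ± 0.48, limma adjusted p = 0.137). Without WT replicate 3, cel5E was at -1.61 (adjusted p = 0.0147) and cbh1/cel7A at -1.38 (adjusted p = 0.031), and both were then changed. In Refbx23, cel5E was at 36.9, 48.7 and 48.4 FPKM, again below both strains.

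Of 5 tested hemicellulase and accessory genes, 0 were changed in limma and 2 had an unadjusted p under 0.05, with a median of 0.05. Xylosidase gene xyl3A (PDE_00049) came closest, with 21.2, 18.7 and 18.7 FPKM in Δfbx23 and 9.33, 8.95 and 11.5 FPKM in the WT (log2 fold change 0.91 ± 0.12, limma adjusted p = 0.00372), a change under 2-fold. Without WT replicate 3 it was 1.01 and passed both thresholds, and without Δfbx23 replicate 1 a single gene of the list was lower. The xylanase gene xyn11A (PDE_02101) had a log2 fold change of -0.74 ± 0.18 (limma adjusted p = 0.0259), also under 2-fold.

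Sugar transporter genes moved in both directions. Of 37 tested genes annotated with carbohydrate transport, 4 were higher and 6 were lower, against 4.77% and 7.0% of all genes tested, with a median of -0.02. The annotation terms were taken from those that the study found enriched on cellulose in this series. PDE_09377 was by far the most abundant of the members named, at 4500.5, 5413.3 and 4608.1 FPKM in Δfbx23 and 1452.8, 1280.0 and 805.4 FPKM in the WT (log2 fold change 2.07 ± 0.24, limma adjusted p = 0.0023). PDE_01388 fell, with 4.66, 6.59 and 4.05 FPKM in Δfbx23 and 54.4, 66.7 and 100.2 FPKM in the WT (log2 fold change -3.59 ± 0.26, limma adjusted p = 0.000482). PDE_05309 fell by 2.37 in log2 units (SE 0.20, limma adjusted p = 0.000717). The lower count was 3 without WT replicate 1, WT replicate 2, Δfbx23 replicate 1 or Δfbx23 replicate 3, and the higher count was 2 without WT replicate 1.

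Amino acid transporter genes gave 1 higher and 3 lower of 27 tested, near the 11.8% of all genes that were changed. PDE_02398 was at 124.2, 68.3 and 78.2 FPKM in Δfbx23 and 17.1, 12.2 and 16.2 FPKM in the WT (log2 fold change 2.46 ± 0.24, limma adjusted p = 0.00137). PDE_05523 was at 0.18, 1.78 and 1.37 FPKM in Δfbx23 and 9.79, 8.86 and 12.3 FPKM in the WT (log2 fold change -2.50 ± 0.34, limma adjusted p = 0.00372). PDE_00845 fell by 2.25 on the log2 scale (limma adjusted p = 0.0148) and lost its call without Δfbx23 replicate 2 (0.0516) or Δfbx23 replicate 3 (0.0604), and without Δfbx23 replicate 3 the lower count was 1. The higher count was 2 without WT replicate 3 and 4 without WT replicate 3 and Δfbx23 replicate 2 together. The wider organic anion transport list, which holds these genes, gave 2 higher and 4 lower of 35, with 2 lower without Δfbx23 replicate 2 and 1 without Δfbx23 replicate 3, and with 5 higher without WT replicate 3 and Δfbx23 replicate 2 together.

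Of 19 tested genes annotated with cell wall macromolecule breakdown, 4 were higher and 0 were lower, against 4.77% and 7.0% of all genes tested, with a median of 0.42 and 9 genes with an unadjusted p under 0.05. The xylanase-annotated gene PDE_09478 was at 89.5, 127.7 and 134.8 FPKM in Δfbx23 and 19.8, 23.7 and 21.5 FPKM in the WT (log2 fold change 2.37 ± 0.17, limma adjusted p = 0.000514). PDE_06649, annotated with cellulose binding and xylan breakdown, rose by 1.83 (SE 0.53, limma adjusted p = 0.049), a call that was lost without any 1 library other than Δfbx23 replicate 1 (adjusted p from 0.0567 to 0.139). The higher count was 2 without WT replicate 2, Δfbx23 replicate 2 or Δfbx23 replicate 3, and without WT replicate 3 a single gene was lower. These genes act on the plant or the fungal cell wall, and the annotation does not separate them.

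For the polysaccharide binding, polygalacturonase, glucan and dioxygenase lists, the counts are likewise to be read against 4.77% higher and 7.0% lower over all genes tested. The polysaccharide binding list gave 4 higher and 1 lower of 25 tested, among them PDE_09417, at 22.5, 12.9 and 15.3 FPKM in Δfbx23 and 3.79, 4.08 and 3.30 FPKM in the WT (log2 fold change 1.89 ± 0.21, limma adjusted p = 0.00189). Its higher count was 2 without WT replicate 2, and its lower count was 3 without WT replicate 3 and 2 without WT replicate 1 or Δfbx23 replicate 1. Polygalacturonase genes, for pectin breakdown, were split, with 2 higher and 2 lower of 11. PDE_03218 was at 153.9, 69.5 and 86.9 FPKM in Δfbx23 and 30.96, 28.35 and 35.93 FPKM in the WT (log2 fold change 1.60 ± 0.29, limma adjusted p = 0.0108), and PDE_09285 fell by 1.23 in log2 units (SE 0.23, limma adjusted p = 0.0118). The lower count was 1 without WT replicate 2, WT replicate 3, Δfbx23 replicate 2 or Δfbx23 replicate 3. Glucan metabolism gave 2 higher and 1 lower of 22. It includes 2 genes with a beta-glucosidase of Aspergillus as best match, of which PDE_01565 was higher (1.77, SE 0.42) and PDE_02736 lower (-1.14, SE 0.22). PDE_01565 lost its call without WT replicate 1 (limma adjusted p = 0.061), WT replicate 2 (0.0941), Δfbx23 replicate 1 (0.0799), Δfbx23 replicate 2 (0.0775) or Δfbx23 replicate 3 (0.0715), and PDE_02736 without WT replicate 3 (-0.91) or Δfbx23 replicate 2 (0.0504). The higher count was 1 without WT replicate 1, WT replicate 2 or Δfbx23 replicate 1, and 4 without WT replicate 3 and Δfbx23 replicate 2 together.

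Dioxygenase-type oxidoreductases, iron enzymes that put oxygen into their substrates, had 2 higher and 4 lower of 22 tested and a median of -0.25. Besides PDE_06706, PDE_07946 was lower, with 1.31, 3.13 and 3.30 FPKM in Δfbx23 and 18.3, 28.7 and 27.9 FPKM in the WT (log2 fold change -2.89 ± 0.29, limma adjusted p = 0.00147). The higher count was 1 without WT replicate 1, WT replicate 2, Δfbx23 replicate 1 or Δfbx23 replicate 3.

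For genes of basic cell functions, lists of this size hold few changed genes at the 11.8% called over all genes, and nothing is read from counts of 0. Of 15 cytosolic ribosomal protein genes 0 passed it in limma and 0 had an unadjusted p under 0.05, with a median of -0.16, although their summed level differed between the WT libraries, at 36305, 31411 and 34012 FPKM in Δfbx23 and 30421, 34475 and 51529 FPKM in the WT. The mitochondrial ribosomal protein, splicing and ribosome biogenesis lists also had 0 changed of 5, 11 and 11 tested. With an unadjusted p under 0.05 they had 0, 6 and 1 members, and their medians were -0.03, -0.35 and -0.16. Of 19 genes for ubiquitin, NEDD8 and the proteasome, only PDE_04928 was changed, a gene with a RING-type ubiquitin ligase of Arabidopsis as best match. It was at 144.4, 101.5 and 99.2 FPKM in Δfbx23 and 40.33, 40.97 and 32.08 FPKM in the WT (log2 fold change 1.57 ± 0.18, limma adjusted p = 0.00218).

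Single genes changed in 3 further lists, whose counts are to be read against 4.77% higher and 7.0% lower over all genes tested. Nothing is read from these counts. Of 23 DNA replication and repair genes 1 was lower, PDE_04341, whose best match is the helicase subunit Mcm4 of fission yeast, at 11.3, 10.4 and 11.8 FPKM in Δfbx23 and 27.3, 23.1 and 20.9 FPKM in the WT (log2 fold change -1.01 ± 0.12, limma adjusted p = 0.0026). It was under 2-fold with median-ratio scaling (-0.95), without WT replicate 1 (-0.91) and without Δfbx23 replicate 2 (-0.97). Of 18 polarity and septation genes 1 was higher, PDE_05451, described above. Of 8 chitin and wall glycan genes 1 was lower, PDE_08139, which has a glucan 1,3-beta-glucosidase of Cochliobolus as best match and is also in the polygalacturonase list (log2 fold change -1.01 ± 0.20, limma adjusted p = 0.015), whose call was lost without WT replicate 2 (adjusted p = 0.0639), WT replicate 3 (-0.93), Δfbx23 replicate 2 (-0.88) or Δfbx23 replicate 3 (0.0621).

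The effect of the deletion on glucose was then set against that on cellulose, which shares no library with it. On cellulose, 1152 of 8006 genes (14.4%) were changed, 484 (6.05%) higher and 668 (8.34%) lower. Among the 7485 genes tested on both media, 80 were higher on both, which is 23.1% of the 346 higher on glucose and 18.3% of the 436 higher on cellulose. In the other direction, 98 were lower on both, 19.6% of the 501 lower on glucose and 19.3% of the 508 lower on cellulose. The directions were opposite for 96 genes lower on glucose and higher on cellulose and for 33 genes higher on glucose and lower on cellulose.

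A fit over 12 libraries with a strain-by-medium interaction term tested whether the media differed, and in it 1641 of 8062 genes (20.4%) passed both thresholds. Of the 535 genes lower on glucose that entered this test, 371 passed with a higher effect of the deletion on cellulose. Of the 365 genes higher on glucose, 248 passed with a lower effect on cellulose. These genes were chosen for their change on glucose, which enters the interaction too, so the counts describe the overlap of both tests. On cellulose 0 of the 6 DHN-melanin genes were changed in limma and 1 had an unadjusted p under 0.05, with a median of -0.01, and for all 6 the interaction passed. For abrA it was 1.19 (SE 0.41, limma adjusted p = 0.0368), and it did not pass without WT glucose replicate 3 (adjusted p = 0.0522) or Δfbx23 glucose replicate 2 (0.0822) or 3 (0.0792), nor without WT cellulose replicate 2 (0.0715) or 3 (0.08) or Δfbx23 cellulose replicate 2 (0.0731) or 3 (0.0827).

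The clusters that fell on glucose took different courses on cellulose. In cluster 1, 24 of 27 tested members were higher on cellulose and 0 were lower, and in cluster 26, 16 of 17 were higher and 0 were lower. In cluster 2, 0 members were higher and 2 were lower on cellulose, and in cluster 28, 0 were higher and 1 was lower. Smaller differences were common there, as 9 of 12 and 7 of 11 tested members had an unadjusted p under 0.05 in limma. Their median log2 fold changes on cellulose were 0.22 and 0.42. Over all clusters, 94 of 240 genes had an interaction with a higher effect on cellulose and 26 one with a lower effect. Of 13 cellulase genes 10 had a higher and 1 a lower effect on cellulose, and of 6 hemicellulase and accessory genes 4 had a higher effect. Over all 8062 genes in this test, 771 had a higher and 870 a lower effect on cellulose. The share of cluster genes with a lower effect was close to that over all genes.

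**Figure D5:**
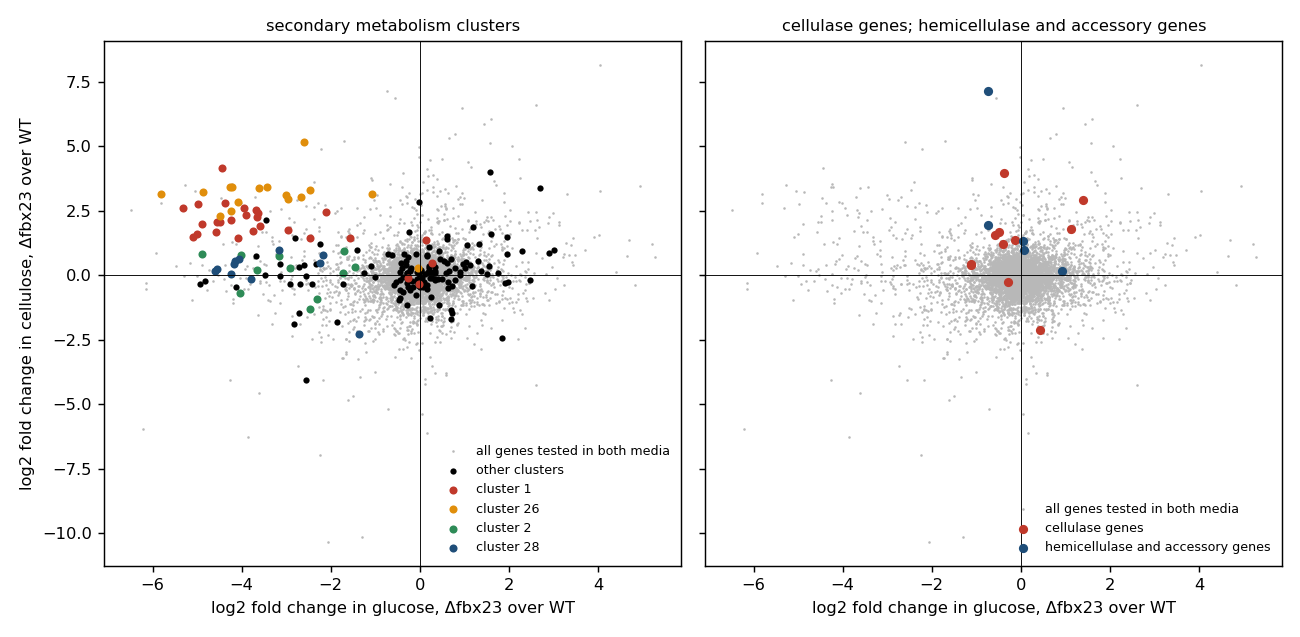
Log2 fold change of Δfbx23 over WT on glucose (horizontal axis) and on cellulose (vertical axis) for the 7485 genes tested on both media (grey), with secondary metabolism clusters marked on the left and cellulase (red) and hemicellulase and accessory genes (blue) on the right. Clusters 1 and 26 lie at the upper left, lower on glucose and higher on cellulose. Clusters 2 and 28 lie left of 0 with few members changed on cellulose, and most cellulase genes lie above 0 on the cellulose axis only.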

How the data were processed

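Per the study's methods, RNA was sequenced on a BGISEQ-500, while the labels describe a tag-based protocol, and which holds could not be settled. The deposited table holds FPKM, which the authors computed per gene for each library without pooling. Aligner and genome build are not given in the sources used here. FPKM were used as deposited, and read counts were not analysed here, so no counting interval could be given. Columns were assigned by title.

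Genes averaging 1 FPKM or more over the 6 libraries were fitted with limma 3.58.1 (intensity trend) in R 4.3.3 on log2(FPKM + 1), with Benjamini-Hochberg adjustment over all genes tested and calls at an adjusted p under 0.05 and a fold change of at least 2. The cellulose contrast was fitted on its own 6 libraries and the interaction on 12. For every gene whose 3 and 3 libraries do not overlap, the exact two-sided permutation test gives p = 0.1, the smallest this design allows. Settings varied were the pseudocount (0.1, 0.5), the filter (none, 5 FPKM), median-ratio scaling, all 18 libraries, no trend, library weights, a replicate block, no fold threshold, and leaving out libraries. Leaving out WT replicate 3 and Δfbx23 replicate 2 together was chosen after seeing the data.

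Named genes were fbx23, its 5 neighbours on each side, the SCF, DHN-melanin, backbone, cellulase and hemicellulase genes, the 10 largest rises and falls, the 5 largest each way among described genes, and up to 3 changed members of each other list. Members and lists were chosen with earlier results of these data known. Lists and descriptions came from the study's supplementary tables, which describe 1066 of the genes tested, and 3 cluster ranges were read past a misprint. Sequences and positions are not analysed here. Tables and figures used Python 3.11.15, pandas 2.3.3, numpy 2.4.6, scipy 1.17.1 and matplotlib 3.10.9.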

Additional observations from a re-analysis of the deposited data

Results flagged for a closer look

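Among 16 named genes whose effect of the deletion was compared between cellulose and glucose by the interaction in limma, 14 differed. Each value is the log2 fold change on cellulose minus that on glucose, with the Benjamini-Hochberg adjusted p over 8062 genes. Among the DHN-melanin genes it was 3.47 for albA (SE 0.44, adjusted p = 0.000126), 5.62 for aygA (SE 0.82, adjusted p = 0.000329), 4.53 for arpA (SE 0.37, adjusted p = 6.16e-06) and 5.27 for arpB (SE 0.64, adjusted p = 9.92e-05). For abrA it was 1.19 (SE 0.41, adjusted p = 0.0368) and for abrB 4.59 (SE 0.50, adjusted p = 4.71e-05). Among the 5 largest falls on glucose it was 9.01 for PDE_09699 (adjusted p = 1.31e-06), 5.86 for PDE_04665 (adjusted p = 2.05e-07), 5.60 for PDE_04225 (adjusted p = 5.40e-06) and 6.78 for PDE_06706 (adjusted p = 1.15e-06). PDE_09699 was lower on glucose and higher on cellulose, where Δfbx23 had 246.3, 178.2 and 166.4 FPKM and the WT 29.7, 34.3 and 35.2 FPKM. Among the 5 largest rises it was -3.99 for PDE_01573 (adjusted p = 1.13e-06), -5.22 for PDE_08478 (adjusted p = 1.96e-06), -3.35 for PDE_00961 (adjusted p = 0.000112) and -3.90 for PDE_00167 (adjusted p = 0.00128). PDE_03296 (-1.49, adjusted p = 0.217) and fbx23 did not pass. For PDE_03296 the value ranged from -2.12 to -0.46 with single libraries left out, without passing, and it passed with library weights (-2.87, adjusted p = 0.000503). The melanin genes and the largest changes were chosen for their change on glucose, and no cause was tested.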

How the results depend on the processing

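Over the settings that left out 1 library, or WT replicate 3 and Δfbx23 replicate 2 together, 708 to 1150 genes were changed, 291 to 470 higher and 417 to 680 lower. Without a fold threshold 1942 genes had an adjusted p under 0.05, 841 higher and 1101 lower. Lower melanin genes numbered 5 in all settings but that of all 18 libraries (6). Lower cluster genes numbered 75 to 89 with libraries left out and 69 with a filter of 5 FPKM, while higher cluster genes numbered 27 with all 18 libraries and 9 to 19 with libraries left out. Lower cellulase genes numbered 1 with a pseudocount of 0.1, 2 with all 18 libraries, 2 with library weights and 0 to 2 with libraries left out, and higher ones 1 with a filter of 5 FPKM, 1 with the replicate block and 1 to 2 with libraries left out. Interaction calls ranged from 1525 to 1796 and stretches from 8 to 11 with libraries left out, with 8 at 5 FPKM. The estimate of library weights did not fully converge. Of 95 changed named genes 75 kept their call under all settings. Replicate numbers did not pair the libraries (correlations of deviations -0.15, 0.26 and -0.02 for the same number), and only the replicates numbered 2 correlated best with each other. With the replicate block 854 genes were changed. Among unchanged genes near 0, signs turned with libraries left out for PDE_08462 (-0.30 to 0.039, and 0.02 without both), PDE_08470 (-0.21 to 0.083), xyn10A (PDE_08094, -0.075 to 0.35), man5A (PDE_06023, -0.069 to 0.18), PDE_01173 (-0.11 to 0.040), PDE_03455 (-0.50 to 0.072), PDE_07373 (-0.12 to 0.094) and PDE_08155 (-0.29 to 0.10), and with median-ratio scaling for PDE_01173 (0.046), PDE_07373 (0.058) and PDE_08155 (0.054). Depth is unknown, which limits statements on genes near 0 FPKM.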
